A study of Mus musculus with 24 samples.

Results

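The rod phototransduction genes examined here are 9 genes whose products carry the light response of rod photoreceptors: Gnat1, Gnb1, Pde6a, Pde6b, Pde6g, Cnga1, Cngb1, Sag and Rcvrn. They were chosen by symbol, and all 9 were found among 21887 protein-coding genes of the RefSeq table for GRCm38.p6. Chromatin of whole wild-type mouse retina had been profiled by CUT&RUN, in which an antibody brings a nuclease to a chromatin-bound protein and the released DNA is sequenced, in pups 2 days (P2) and 17 days (P17) after birth. At each age there were 4 libraries for SOX8, from 2 antibodies, and 2 libraries each for SOX9, for H3K4me3 (a mark of active promoters), for H3K27ac (a mark of active promoters and enhancers) and for a nonspecific IgG, with 600000 nuclei per reaction. The values below come from 8 deposited peak lists, 1 for each of the 4 targets at each age. The lists give positions only, name no replicate and carry a score of 0 for every peak, so there is no replicate error behind any value, no test was possible, and sequencing depth is unknown. Nuclei came from all retinal cells together, so a smaller number of rods and less marking per rod cannot be told apart, and strain, sex and pooling of animals are not given in the sources used here.

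In rods, light switches on the G protein transducin, whose alpha subunit is encoded by Gnat1 and whose beta subunit by Gnb1. Transducin releases the inhibitory gamma subunit (Pde6g) from the catalytic subunits of the cGMP phosphodiesterase (Pde6a and Pde6b), cGMP falls, and the cation channel built from Cnga1 and Cngb1 closes. Arrestin, encoded by Sag, ends the signal at its first step, and recoverin, encoded by Rcvrn, restrains the receptor kinase Grk1 in a calcium-dependent way. Mouse rods are still being born in the first days after birth, and the outer segments that hold these proteins form over the following weeks. SOX8 and SOX9 are related transcription factors studied in this series for their part in Müller glia, the main glia of the retina. Gnb1 differs from the other members in that its product also serves G proteins of many other cell types.

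At P17, SOX9 peaks lay at 8 of the 9 genes, where a peak was counted if it shared any base with the gene or its 5 kb flanks, against 15.7% of all protein-coding genes. At P2 they lay at 1 gene, Gnb1, against 27.7% of all genes, and with 9 genes this count is not far from that share. Gnat1, Pde6a, Pde6b, Pde6g, Cngb1, Sag and Rcvrn thus had a SOX9 peak at P17 and none at P2 (7 of 9, against 4.35% of all genes), Gnb1 had one at both ages, and Cnga1 had none at either age. No member had a SOX9 peak at P2 alone, against 16.4% of all genes, and with 9 genes this absence is not far from that share. When only the wider 50% of each list was used, P17 SOX9 lay at 4 members and P2 SOX9 at 0. SOX8 behaved differently: its peaks lay at 2 members at P2 (Gnat1 and Gnb1, against 15.1% of all genes) and at 1 member at P17 (Gnat1, against 13.0%). With 9 genes, 1 gene more or fewer moves a share by 11.1 percentage points, and neither SOX8 count stands far from the share over all genes. No member had a SOX8 peak at P17 alone (4.94% of all genes), and Gnb1 had one at P2 alone (7.0%), both near the share over all genes.

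The histone marks at the same genes also differed between the ages. H3K4me3 peaks lay at 4 members at P2, near the share over all genes of 49.3%, and at 9 of 9 at P17, against 50.9%. At P2 the H3K4me3 peak overlapped the gene itself in Gnb1 alone. At Gnat1, Pde6b and Pde6g the P2 peak lay outside the gene, between 1081 and 4519 bp from it, over the neighbouring genes Slc38a3, Atp5k, and Oxld1 with Ccdc137. Counting only peaks that overlap the gene body, H3K4me3 was found at 1 member at P2 (46.0% of all genes) and 9 at P17 (47.6%), SOX9 at 1 (24.7%) and 7 (13.5%), and SOX8 at 1 at either age (13.1% and 10.9%). With 9 genes, the P2 SOX9 count and both SOX8 counts are not far from these shares. Pde6a, Cnga1, Cngb1, Sag and Rcvrn had no H3K4me3 peak within 5 kb at P2 and had one at P17, a pattern seen in 5.0% of all genes. None of the 9 had H3K4me3 at P2 alone, which with 9 genes is near the share over all genes of 3.40%. H3K27ac peaks lay at all 9 members at both ages, against 81.8% of all genes at P2 and 57.0% at P17 with the flanks, and 76.8% and 52.9% over the gene body.

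The members run from 5198 bp (Gnat1) to 69277 bp (Pde6a), with a median of 43371 bp against 17169 bp over all genes, and a longer gene has more room for a peak. Among the 13100 genes within that range of lengths, 17.2% had a P17 SOX9 peak, 29.6% a P2 SOX9 peak and 56.5% a P17 H3K4me3 peak, each somewhat above the share over all genes. Among the 11137 genes with a P17 H3K4me3 peak, SOX9 was found at 27.4% and SOX8 at 23.1% at the same age. Of the 9 members, all with that mark, 8 had the SOX9 peak and 1 the SOX8 peak.

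For P17 H3K4me3 and P17 SOX9, the share of the gene body that peaks covered was higher in the 3 shortest members than in any of the other 6. P17 H3K4me3 covered 100% of Gnat1, Pde6g and Rcvrn, the 3 shortest genes, and between 6.45% (Cngb1) and 39.3% (Gnb1) of the others. P17 SOX9 covered 100% of Gnat1, 55.3% of Pde6g, 50.7% of Rcvrn and 29.1% of Gnb1. It covered 7.64% of Pde6b, 7.29% of Sag and 1.14% of Pde6a, and none of Cngb1 and Cnga1. Summed over the 9 genes, 353356 bp in all, P17 SOX9 covered 11.3% against 1.23% of all gene bodies, and P2 SOX9 covered 0.436% against 1.04%. Without Gnb1, which is not restricted to rods, P17 SOX9 covered 7.03% and P2 SOX9 none of the gene bodies. Over the same bases H3K4me3 went from 1.26% at P2 to 26.3% at P17, while over all gene bodies it covered 2.54% and 2.91%. H3K27ac covered 20.5% at P2 and 76.5% at P17, whereas over all gene bodies it covered 30.5% at P2 and 12.9% at P17. SOX8 covered 0.693% at P2 and 1.47% at P17, all of it in Gnat1, against 0.416% and 0.567% over all gene bodies.

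**Figure D1:**
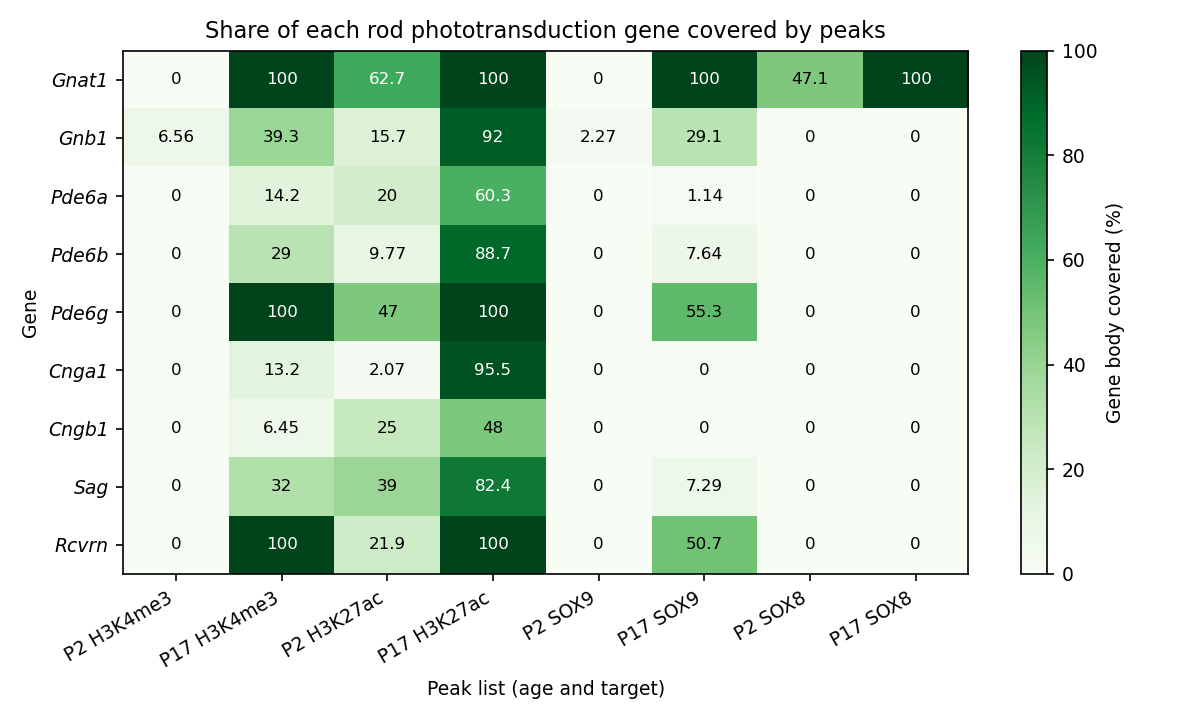
Share of each gene body covered by peaks, in percent, for the 9 genes (rows) and the 8 peak lists (columns), with the value printed in each cell. P2 SOX9 covers 2.27% of Gnb1 and nothing of the other 8 genes, while P17 SOX9 covers the whole of Gnat1 and part of 6 other genes.

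A gene start and strand were found for 5 members in the RefSeq promoter table of GRCm38.p6 (Gnb1, Pde6b, Cnga1, Cngb1 and Sag); Gnat1, Pde6a, Pde6g and Rcvrn were not matched. P17 SOX9 peaks covered the start of 3 of these 5 (Gnb1, Pde6b and Sag), against 10.3% of the genes in that table, and P2 SOX9 that of 1 (Gnb1), against 22.8%. SOX8 covered none of the 5 starts at either age (12.2% of genes at P2 and 8.40% at P17). With 5 starts, the P2 SOX9 count and both SOX8 counts are near the shares over the genes of that table. H3K4me3 covered 1 start at P2, that of Gnb1, and 5 at P17 (44.8% and 46.0% of genes), and H3K27ac 4 at P2 and 5 at P17 (60.7% and 46.6%). Gnb1, Pde6b, Sag and Cngb1 were those with H3K27ac over the start at P2, so at the last 3 H3K27ac was called there at P2 and H3K4me3 was not. The 250 bases before the start are printed 5′ to 3′ on the gene's strand, since for Gnb1, Pde6b and Sag they lie inside the P17 SOX9 peak and for Cngb1 and Cnga1 they do not. Capitals mark exact matches, on either strand, to ACAATG and ACAAAG (bound by SOX factors), TAATCC (CRX and OTX factors) and TGCTGA (NRL), letters that do not overlap one another in any of the 5.

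Gnb1, chr4:155491111-155491360, plus strand: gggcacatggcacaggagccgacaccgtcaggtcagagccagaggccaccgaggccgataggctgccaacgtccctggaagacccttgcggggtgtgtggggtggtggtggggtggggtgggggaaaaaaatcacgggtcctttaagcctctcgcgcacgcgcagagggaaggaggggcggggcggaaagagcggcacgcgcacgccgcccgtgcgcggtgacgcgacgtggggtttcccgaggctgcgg
Pde6b, chr5:108388123-108388372, plus strand: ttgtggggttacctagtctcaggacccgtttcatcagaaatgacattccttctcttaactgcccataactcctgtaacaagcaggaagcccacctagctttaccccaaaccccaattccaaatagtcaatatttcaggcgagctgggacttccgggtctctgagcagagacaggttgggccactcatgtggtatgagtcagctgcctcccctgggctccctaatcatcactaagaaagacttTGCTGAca
Sag, chr1:87803430-87803679, plus strand: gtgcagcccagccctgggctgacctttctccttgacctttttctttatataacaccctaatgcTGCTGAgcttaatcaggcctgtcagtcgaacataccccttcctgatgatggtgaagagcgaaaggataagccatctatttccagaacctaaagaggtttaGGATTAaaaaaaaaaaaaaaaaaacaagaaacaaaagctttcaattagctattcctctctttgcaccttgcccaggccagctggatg
Cngb1, chr8:95306586-95306835, minus strand: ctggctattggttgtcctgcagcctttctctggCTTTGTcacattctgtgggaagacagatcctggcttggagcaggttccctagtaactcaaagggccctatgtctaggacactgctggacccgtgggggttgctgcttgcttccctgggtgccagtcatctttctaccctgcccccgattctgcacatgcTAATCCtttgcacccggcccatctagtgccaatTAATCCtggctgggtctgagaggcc
Cnga1, chr5:72642753-72643002, minus strand: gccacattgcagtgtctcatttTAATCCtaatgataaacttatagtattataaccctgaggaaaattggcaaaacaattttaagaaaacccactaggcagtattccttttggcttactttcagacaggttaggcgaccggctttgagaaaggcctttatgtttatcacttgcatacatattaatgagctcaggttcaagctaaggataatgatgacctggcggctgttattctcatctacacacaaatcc

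No match to either SOX motif was found in these windows of Gnb1, Pde6b, Sag or Cnga1, and Cngb1 held 1, the letters CTTTGT, which begin 217 bases before its start. Of 21263 such windows of protein-coding genes, 22.8% held at least 1 of the SOX motifs (9.35% ACAATG and 14.9% ACAAAG, both strands). TAATCC, the core that the photoreceptor factor CRX recognises, was found in Cngb1, at 58 and 25 bases before the start, in Cnga1 at 228 bases and, as GGATTA on the other strand, in Sag at 87 bases, against 5.82% of windows. TGCTGA, contained in the response element of the rod factor NRL, began 8 bases before the start of Pde6b and 187 bases before that of Sag, against 14.9% of windows. Gnb1 held none of the 4 motifs, and its window was 69.2% G and C, against 38.4% in Cnga1, 42.8% in Sag, 49.6% in Pde6b, 55.6% in Cngb1 and a median of 55.6% over all windows. A match describes the letters alone, and the SOX9 peaks extend beyond these windows.

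Of the 9 genes, those for transducin had the widest P17 SOX9 peak, at Gnat1, and the most, 3 at Gnb1. Gnat1 (chromosome 9, 107674437 to 107679634) lay wholly inside a P17 SOX9 peak of 17688 bp, from 107664636 to 107682323, which is wider than 99.3% of the P17 SOX9 peaks. That peak reached 9801 bp below the gene into Slc38a3 and 2689 bp beyond it into Sema3f, so its position does not assign it to Gnat1 alone. P17 SOX8 had 2 peaks there, of 5371 bp (107666713 to 107672083) and 9569 bp (107673627 to 107683195), and the wider of them, wider than 99.4% of its list, held all of Gnat1. P17 H3K4me3 likewise lay in 2 peaks, of 16094 and 14661 bp. The gaps between the paired peaks were 521 bp for H3K4me3 and 1543 bp for SOX8, and they overlap; the lower of the SOX8 peaks ended 38 bp from the end of the lower H3K4me3 peak. The SOX9 peak ran across both gaps, and 79.5% of it lay in SOX8 peaks.

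Gnat1 was also the only member with a SOX peak inside the gene body at P2 other than the peak at the start of Gnb1, and that peak belonged to SOX8. It spanned 2447 bp (107675346 to 107677792), lay wholly within Gnat1 and covered 47.1% of it. No P2 SOX9 peak overlapped it, and neither did a P2 H3K4me3 peak. A P2 H3K27ac peak of 3260 bp (107674517 to 107677776) held 99.3% of it, and their upper edges lay 16 bp apart. By P17 the same bases were in peaks of SOX8, SOX9, H3K4me3 and H3K27ac.

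Gnb1 (chromosome 4, 155491300 to 155559269, plus strand) was the only member with a SOX9 peak at its start at P2. That peak spanned 2386 bp (155490456 to 155492841), and the P17 peak in its place spanned 7312 bp (155490379 to 155497690) and held all of it. Their lower edges lay 905 and 982 bp upstream of the start, while the upper edge reached 1480 bp beyond the start at P2 and 6329 bp at P17, 26 bp short of the edge of the P17 H3K4me3 peak. H3K4me3 over the start was 6032 bp wide at P2 and 7978 bp at P17. A separate P17 domain inside the gene had no counterpart at P2 in H3K4me3 or SOX9: an H3K4me3 peak of 20314 bp (155520122 to 155540435), wider than 99.9% of its list, began 28761 bp downstream of the start. Within it lay 2 P17 SOX9 peaks, of 8073 and 5318 bp, separated by 5502 bp. P2 H3K27ac had narrower peaks in that interval, of 2949, 1365 and 1043 bp, and at P17 a single H3K27ac peak of 67328 bp ran from 10995 bp upstream of the start to 56332 bp downstream. At the far end of Gnb1, P2 peaks of SOX9 (2365 bp) and SOX8 (2369 bp) lay 3111 and 3222 bp beyond the gene, over Nadk, and neither SOX list had a peak there at P17, where H3K4me3 (3243 bp) was still called.

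**Figure D2:**
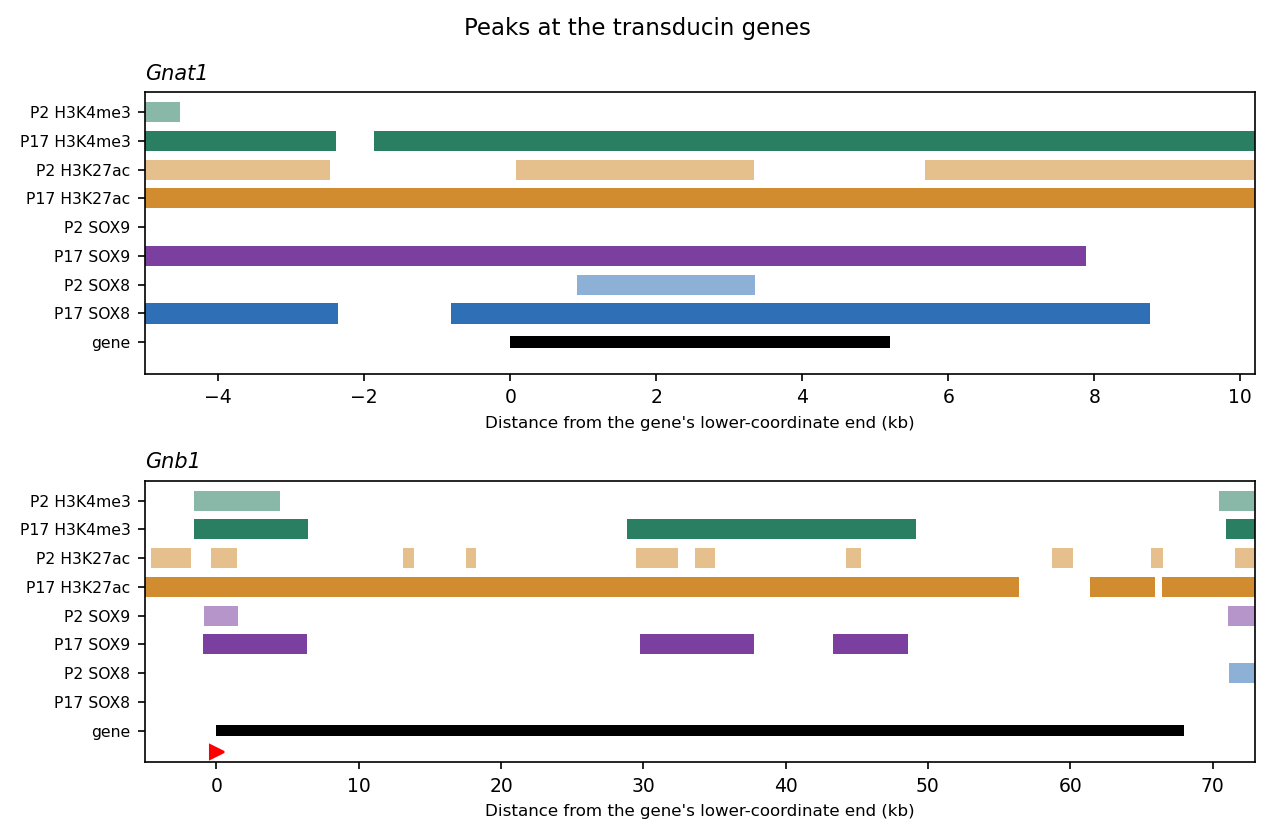
Maps of the peaks at Gnat1 and Gnb1, from 5 kb before to 5 kb after the gene, with distance from the lower-coordinate end in kb; each row is a peak list (P2 paler than P17), the black bar is the gene and the red arrowhead, where the start is known, points in the direction of transcription. Gnat1 lies inside the P17 SOX9 peak, and inside Gnb1 both inner P17 SOX9 peaks lie under the 20314 bp H3K4me3 peak.

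Each of the phosphodiesterase genes had P17 SOX9 at 1 end or both, and none had a SOX8 peak or a P2 SOX9 peak. Pde6b, the catalytic beta subunit (chromosome 5, 108388373 to 108431743, plus strand), had a P17 SOX9 peak of 4298 bp (108387387 to 108391684) that reached 986 bp upstream of the start and 3311 bp downstream. It lay wholly inside P17 H3K4me3 (13467 bp) and P17 H3K27ac (23471 bp). At P2 the start had neither H3K4me3 nor SOX9, but an H3K27ac peak of 3967 bp (108387659 to 108391625) that lay wholly within the later SOX9 peak and made up 92.3% of it. At its far end, over Atp5k, H3K4me3 was called at both ages (2571 and 4868 bp) and no SOX peak was called.

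Pde6a, the catalytic alpha subunit (chromosome 18, 61220474 to 61289750), had a single P17 SOX9 peak of 7091 bp (61214170 to 61221260), of which 6304 bp lay below the gene and only 1.14% of the gene was covered. P17 H3K4me3 of 13547 bp covered the same end, and together with a further H3K4me3 peak just outside the 5 kb flank it held 80.2% of the SOX9 peak. No P2 peak of H3K4me3, H3K27ac or SOX9 overlapped it, and no P2 SOX8 peak lay in the gene or its 5 kb flanks. P2 H3K27ac had 11 narrow peaks further along the gene or beyond it, of 797 to 3236 bp. P17 H3K27ac had 7 peaks, up to 110810 bp wide, the widest of them starting 2172 bp beyond the gene and over Ppargc1b.

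Pde6g, the inhibitory gamma subunit (chromosome 11, 120447607 to 120453500), had 2 P17 SOX9 peaks, 1 over each end of the gene. The lower, of 7859 bp (120441278 to 120449136), also overlapped Tspan10, and the upper, of 4258 bp (120451773 to 120456030), overlapped no other gene. Between them 2636 bp within the gene had no SOX9 peak, whereas P17 H3K4me3 (16271 bp) and H3K27ac (17000 bp) ran over the whole gene without a gap. At P2 H3K27ac covered 47.0% of Pde6g, in peaks of 1092 and 2284 bp.

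**Figure D3:**
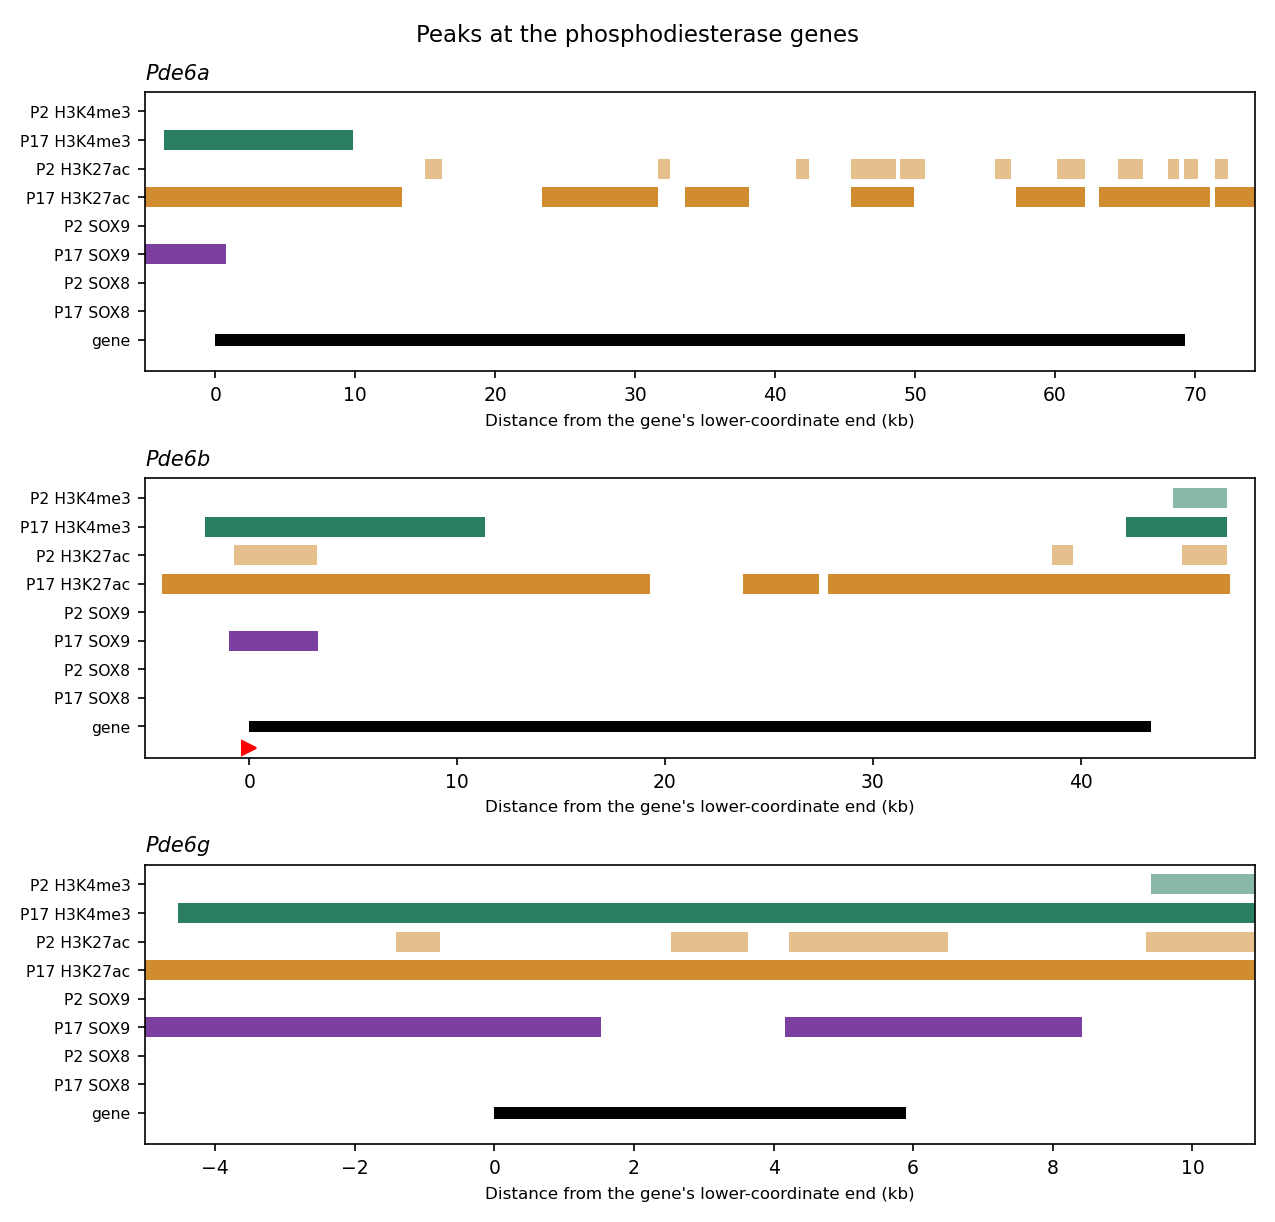
Maps of the peaks at Pde6a, Pde6b and Pde6g, drawn as for the transducin genes. At Pde6b the P17 SOX9 peak of 4298 bp sits where H3K27ac was already called at P2. At Pde6a the P17 SOX9 peak sits where P2 H3K4me3, H3K27ac and SOX9 have no peak, and at Pde6g SOX9 leaves 2636 bp of the gene free.

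The channel genes were the members whose gene bodies P17 SOX9 did not touch. Cnga1, the alpha subunit (chromosome 5, 72603696 to 72642752, minus strand), had no SOX9 or SOX8 peak at either age. Its start lay in a P17 H3K4me3 peak of 8058 bp (72637583 to 72645640), and P17 H3K27ac covered 95.5% of the gene, so the absence of SOX9 peaks went with the presence of both marks. That H3K4me3 peak was the narrowest among the widest of each member, yet wider than the widest at 95.2% of genes with the mark. At P2 H3K27ac covered 2.07% of Cnga1, the least of the 9, and did not cover its start. Cngb1, the beta subunit (chromosome 8, 95239043 to 95306585, minus strand), had a P17 SOX9 peak of 4995 bp (95308471 to 95313465) that began 1886 bp upstream of the start, touched no base of the gene and overlapped the neighbouring gene Tepp. The P17 H3K4me3 peak at Cngb1, of 9511 bp, reached 5157 bp upstream of the start and 4353 bp into the gene, and held 65.5% of the SOX9 peak, the smallest share among the members' SOX9 peaks.

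The genes that act in recovery from light each had 1 P17 SOX9 peak and no other SOX peak. Sag, rod arrestin (chromosome 1, 87798143 to 87845158, plus strand), had a peak of 3426 bp (87802799 to 87806224), the narrowest P17 SOX9 peak at any member and wider than 19.6% of its list. It covered the start in the promoter table, at 87803680, which lies 5537 bp inside the lower end of the gene as annotated, and reached 881 bp upstream and 2544 bp downstream of it. H3K4me3 was absent from Sag at P2 and spanned 15064 bp at P17, while P2 H3K27ac already had a peak of 3335 bp over the start. Rcvrn, recoverin (chromosome 11, 67695326 to 67703355), had a P17 SOX9 peak of 4682 bp (67694718 to 67699399) over its lower end. Rcvrn lies wholly inside the annotated span of another gene, Glp2r, so the position of a peak there does not assign it to Rcvrn alone. The lower edge of that peak lay 6 bp from the lower edge of the P17 H3K4me3 peak, of 10307 bp, which went on over the whole gene. None of the P2 H3K27ac peaks at Rcvrn overlapped the bases of the SOX9 peak.

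**Figure D4:**
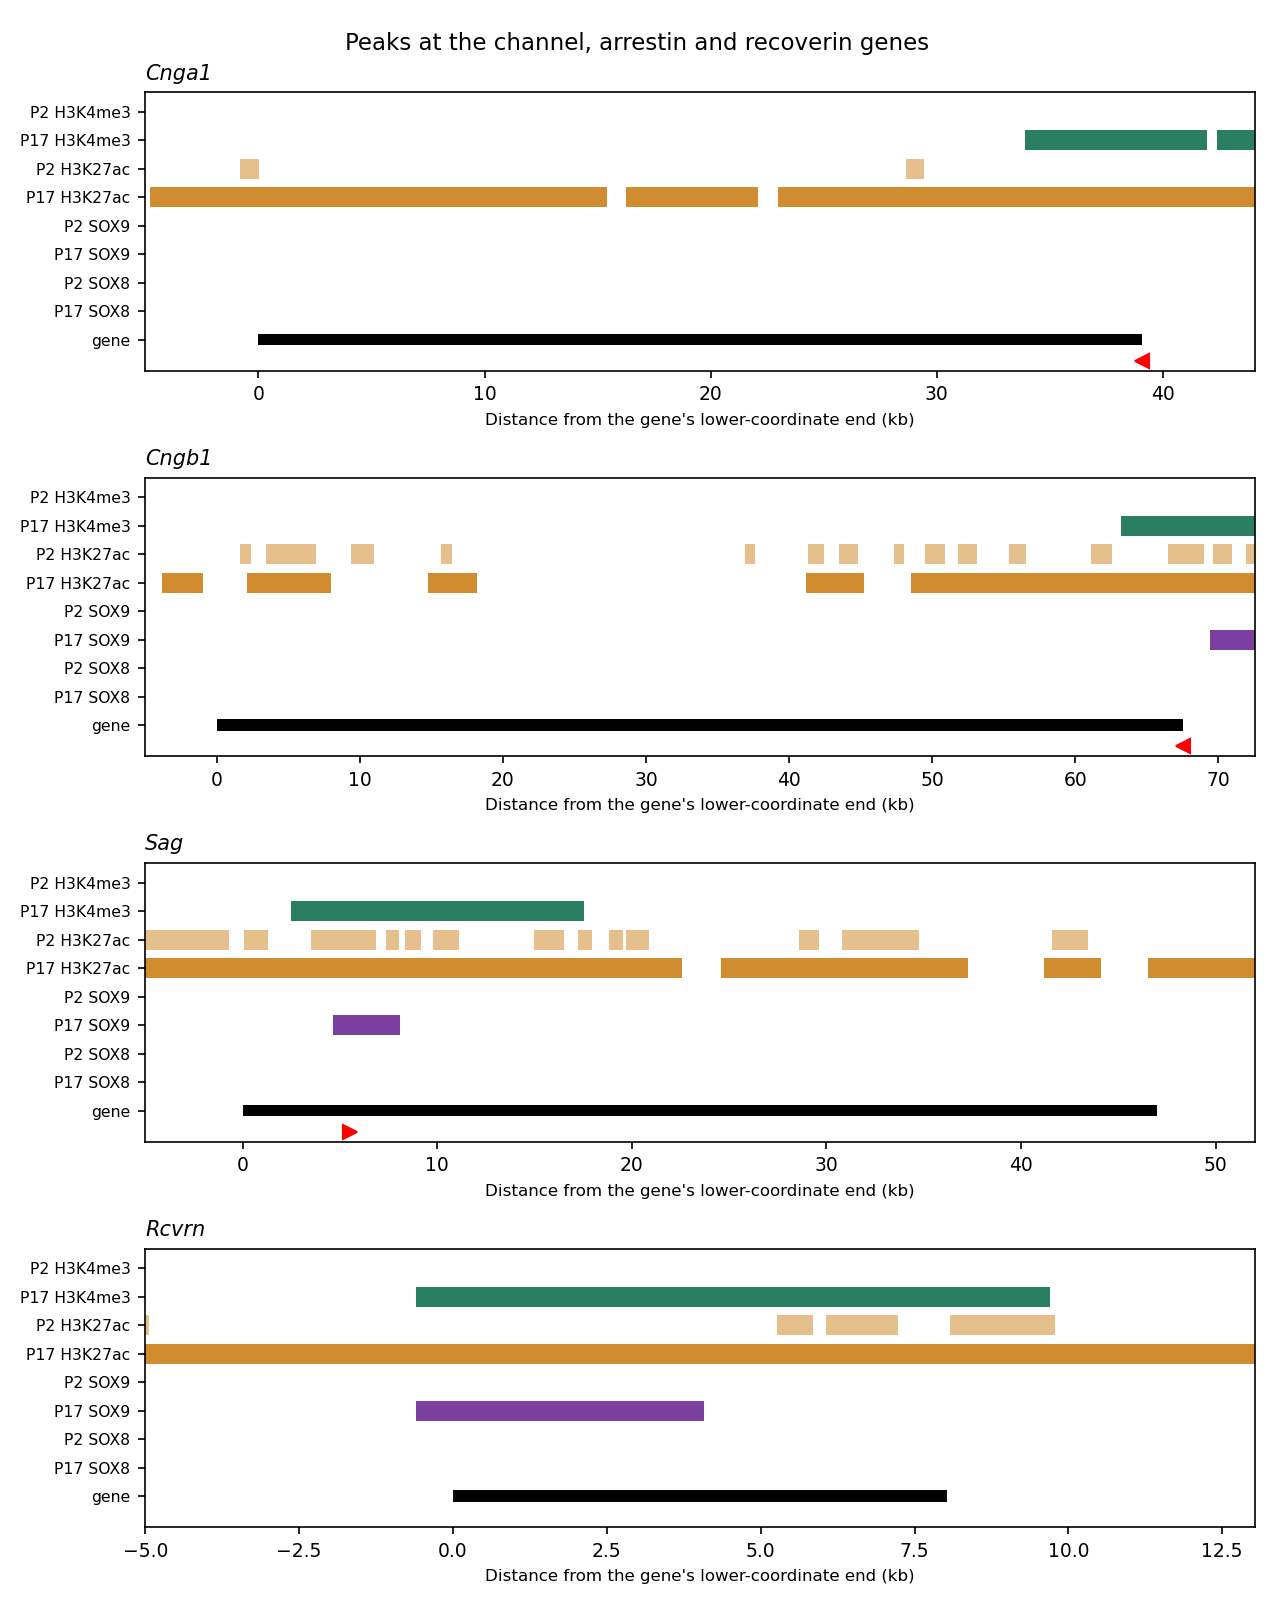
Maps of the peaks at Cnga1, Cngb1, Sag and Rcvrn, drawn as for the transducin genes. Cnga1 has no SOX peak, the P17 SOX9 peak at Cngb1 begins 1886 bp upstream of the start, and those at Sag and Rcvrn lie over the start and over the lower-coordinate end.

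The 11 P17 SOX9 peaks at the members were 3426 to 17688 bp wide with a median of 5318 bp, near the median of 5336 bp of that list, and 5 of them were above it. All 11 overlapped P17 H3K4me3 and P17 H3K27ac. H3K4me3 held 92.7% of their bases, against 46.0% of the bases of the whole P17 SOX9 list, and 6 of the 11 lay wholly inside it. H3K27ac held 98.3%, against 67.2%, and 10 lay wholly inside it. The sets compared are unlike, since the 11 peaks were taken near genes that all had both marks at P17. Of the peaks of the whole list, 66.5% touched H3K4me3 and 84.3% H3K27ac. The lowest 1291 bp of the lower Pde6g peak lay in neither mark. The part of the marks in these SOX9 values was not tested. At each of the 9 members the widest P17 H3K4me3 peak was wider than at 95.2% or more of the genes with one, between 8058 bp at Cnga1 and 20314 bp at Gnb1, with a median of 13547 bp against 3885 bp. Looking back to P2, 9 of the 11 peaks overlapped a P2 H3K27ac peak and 2 a P2 H3K4me3 peak. P2 H3K27ac held 42.3% of their bases, against 73.2% of the bases of the whole P17 SOX9 list.

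Other genes of the same pathway had H3K4me3 at P17 without exception and SOX9 at some. Of 13 further genes of rod phototransduction and its regulation, 13 had a P17 H3K4me3 peak, 4 a P17 SOX9 peak and 2 a P2 SOX9 peak, while 1 had a P17 SOX8 peak and 0 a P2 SOX8 peak. Over all genes the shares were 50.9%, 15.7%, 27.7%, 13.0% and 15.1% in the same order. The counts for P2 SOX9 (15.4%) and for SOX8 at P17 (7.69%) and P2 (0%) were below the shares over all genes. With 13 genes they do not stand far from those shares. The 4 with P17 SOX9 (30.8%) were Grk1, Rgs9bp, Gnb5 and Slc24a1. Gnb5, the beta subunit in the complex that switches transducin off, also had the P17 SOX8 peak, of 2836 bp, and Gnat1 was the member that combined both factors at P17. Grk1, a receptor kinase of photoreceptors, had P17 SOX9 peaks of 7637 and 5899 bp over 57.9% of the gene. SOX9 peaks of 7218 bp at Rgs9bp, 7425 bp at Gnb5 and 7084 bp at Slc24a1 were similar in width, and the first of these genes, which anchors the complex that switches transducin off, had SOX9 at P2 too.

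Genes of cone phototransduction, the counterparts in the cells that serve colour vision, are listed for contrast. Of 12, P17 SOX9 peaks lay at 2 and P17 H3K4me3 peaks at 3, while both rod lists had the mark at every gene. The pair with SOX9 was Gnb3, the cone transducin beta subunit, and Grk1, which is listed for both cell types. Gnb3 had SOX9 at both ages, in peaks of 3550 and 2951 bp at P2 and 6660 and 2659 bp at P17, and SOX8 at both ages. Of 12 genes for outer segment structure, 12 had P17 H3K4me3 (50.9% of all genes), 8 P17 SOX9 (15.7%) and 5 P17 SOX8. SOX8 thus lay at 41.7% of them, against 11.1% of the members and 13.0% of all genes. These counts were set side by side without a test, and the lists were chosen with earlier results of these data known.

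**Figure D5:**
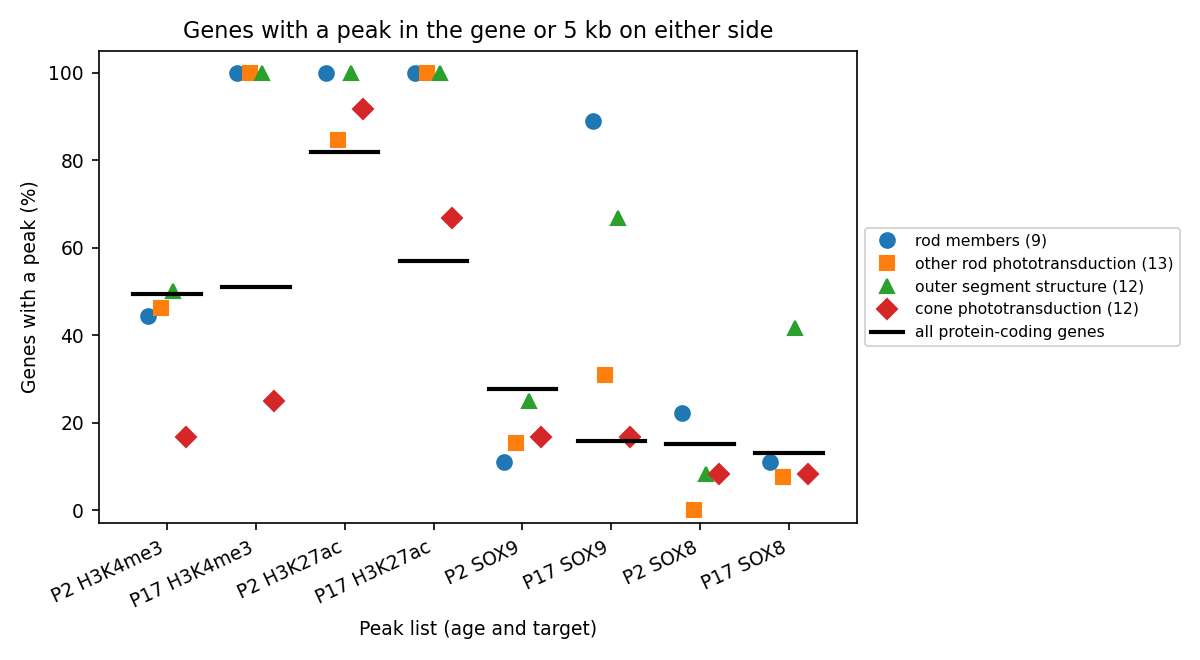
Percent of genes with a peak within 5 kb for the 9 rod members and 3 other gene lists (symbols) and for all protein-coding genes (black lines), in each of the 8 peak lists. P17 H3K4me3 lies at every gene of the members, the other rod list and the outer segment list and at 3 of 12 cone genes, and P17 SOX9 marks 88.9% of the members against 15.7% of all genes.

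Marker genes were counted to check the tissue. Of 8 transcription factors of the retina, 8 had H3K4me3 at both ages, against 49.3% of all genes at P2 and 50.9% at P17. Of 8 marker genes of liver, heart, pancreas, lymphocytes and skin, 0 had H3K4me3 or SOX peaks at either age. The SOX lists lay at 13.0% to 27.7% of all genes, so with 8 genes the absence of SOX peaks is not far from those shares. P2 H3K27ac, however, lay at 6 of those 8 genes, near the 81.8% of all genes, and P17 H3K27ac at 0, against 57.0%. A P2 H3K27ac peak at a member thus does not set it apart from genes of other tissues. Of 8 Müller glia genes, 6 had SOX9 at P2 and 0 at P17, against 27.7% and 15.7% of all genes. H3K4me3 lay at 7 of them at P2 and 4 at P17, against 49.3% and 50.9%. With 8 genes, both P17 counts are near the shares over all genes. The part of glial chromatin in the values at the rod genes was not tested. The lists held 2653 (P2) and 2400 (P17) peaks for SOX8, 5476 and 2855 for SOX9, 9134 and 9629 for H3K4me3, and 287845 and 29909 for H3K27ac. With such unequal lists, the counts for H3K27ac and SOX9 cannot be compared between ages peak for peak. IgG libraries were not analysed here, so no background measured in the same way stands beside the SOX peaks.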

How the data were processed

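The deposited files were 8 lists of peak positions made by the authors, 1 for each target and age, with a score of 0 in every row. The submitters' processing notes name Bowtie2, SEACR and GRCm38; their settings, the use of the IgG libraries and the way replicates were combined are not given in the sources used here. Each list was assigned to its group by the age and target in its name. Gene positions came from the RefSeq table of GRCm38.p6, the build of the lists, and gene starts and sequences from the RefSeq promoter table, in which 5 of the 9 genes were matched. Peaks were counted at a gene when they shared 1 bp or more with the gene or its 5 kb flanks, and covered bases were summed over the gene body. Positions are counted from 1. No test was made, since there are no replicate values. All 9 members are named, and of the other genes those with a P17 SOX9 peak among the rod genes and up to 3 cone genes with a SOX peak. Markers were counted by list. One gene of the pathway is not reported here. The members and gene lists were chosen with earlier results of these data known. Alternatives changed the flank, the overlap, the peak lists, the distance to the start and the members. The interval counting was tested on made-up intervals. Python 3.11.15, pandas 2.3.3, numpy 2.4.6 and matplotlib 3.10.9 were used.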

Additional observations from a re-analysis of the deposited data

How the results depend on the processing

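No paired analysis was possible because each list stands for all libraries of its group, and for the same reason no replicate could be left out. Over 104 alternatives, 66 values stayed within 1.5 times the count or within the binomial interval of the share over bases, and 38 moved. That interval counts every base separately, although the bases of 1 peak are called together, and it measures no replicate error. It is therefore narrow, and small shifts, such as 76.5% to 75.7% for P17 H3K27ac, count as moved. Of the 24 alternatives for shares, 20 moved by this rule. The number of members with a P17 SOX9 peak was 8 and moved only with the wider 50% of that list, to 4. The P2 SOX9 count of 1 became 2 with a flank of 10 kb, 5 with 50 kb, and 0 with the wider 50% of the list or the widest peaks in equal number at both ages. The P2 H3K4me3 count of 4 became 1 with no flank or 1 kb, 8 with 50 kb and 2 with the wider 50%. The P2 SOX8 count of 2 became 1 with no flank or 1 kb, and the P17 SOX8 count of 1 became 2 with 10 kb and 4 with 50 kb. With the widest peaks in equal number, P2 H3K27ac fell from 9 members to 4 and from 4 starts to 2. Over gene starts, P2 SOX9 went from 1 to 0 with the wider 50% or with equal numbers, and P17 SOX9 from 3 to 1 with the wider 50%.

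Covered shares with 5 kb flanks were 2.96% and 30.8% for H3K4me3 at P2 and P17, 23.0% and 80.2% for H3K27ac, 0.964% and 14.8% for SOX9, and 0.953% and 2.76% for SOX8. Over the gene bodies alone, without flanks, leaving out Gnb1 gave 0% and 23.2%, 21.7% and 72.8%, 0% and 7.03%, and 0.857% and 1.82% in the same order. Gnb1 thus holds all of the P2 H3K4me3 and P2 SOX9 coverage of gene bodies. Without it P17 SOX9 coverage of gene bodies falls from 11.3% to the 7.03% given. With the wider 50% of each list, H3K27ac covered 14.9% of the gene bodies at P2 and 75.7% at P17, and SOX9 0% and 6.22%. The rise with age of covered H3K4me3, H3K27ac and SOX9 kept its direction in each of these settings. The wider 50% leaves fewer peaks by construction; the cause of the other changes was not tested. Width is the only property by which the lists can be shortened, since they carry no score, and depth is unknown.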

Other observations

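The transcription factors that drive rod gene expression showed another timing of the marks than the phototransduction genes. Crx, Nrl and Nr2e3, named after their values were seen from the 8 retinal factors counted above, had H3K4me3 within 5 kb at P2 as well as P17, as had 8 of the 8. SOX9 peaks lay at 7 of the 8 at each age, against 1 of the 9 phototransduction genes at P2 and 8 at P17. Crx had a P2 SOX9 peak of 4470 bp and P17 peaks of 12563 and 6866 bp. Nrl, the factor that commits precursors to the rod fate, had no P2 SOX9 peak and lay wholly inside a P17 SOX9 peak of 12411 bp. Nr2e3 had a peak of similar width at both ages, 8546 bp at P2 and 7936 bp at P17.

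Among the outer segment genes, chosen for mention after their values were seen, Prph2 lay wholly inside a P17 SOX9 peak of 23811 bp, wider than that at any of the 9 phototransduction genes, and Fscn2 had one of 15849 bp over 97.1% of the gene. P17 SOX8 peaks lay at both, of 3261 and 4988 bp, so they and Gnat1 combine wide SOX9 peaks with SOX8 peaks at P17. That combination was not particular to them. Crx, Nrl and Rax, another of the retinal factors, had P17 SOX9 peaks of up to 12563, 12411 and 10712 bp. Their P17 SOX8 peaks were up to 3532, 2447 and 3594 bp wide. None of these differences between lists was tested.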
